A study of Mus musculus with 38 samples.

Results

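Expression of the xenobiotic-metabolizing cytochromes P450 outside the Cyp1 family, of their electron donor and of the epoxide hydrolases was examined in the lung and forestomach of mice given dibenz(a,h)anthracene (DBahA), a polycyclic aromatic hydrocarbon. The 9 genes listed were the P450 enzymes Cyp2f2, Cyp2b10, Cyp2s1, Cyp4b1, Cyp2a5 and Cyp2e1, the NADPH-cytochrome P450 reductase Por, the microsomal epoxide hydrolase Ephx1 and the soluble epoxide hydrolase Ephx2. Their probes were found through the transcript accession given for each probe in the array files. This gave 10 of the 55681 probes on the array, for 8 of the 9 genes, with a pair of probes each for Ephx1 and Cyp2e1. The transcripts were NM_007817 for Cyp2f2, NM_009999 for Cyp2b10, NM_028775 for Cyp2s1, NM_007823 for Cyp4b1, NM_021282 for Cyp2e1, NM_008898 for Por, NM_010145 for Ephx1 and NM_007940 for Ephx2. No probe was matched to Cyp2a5, so its level is not reported here.

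Male MutaMouse aged about 10 weeks, a transgenic strain that carries a bacterial reporter gene for mutation assays, were gavaged with DBahA in olive oil for 28 days and killed 72 h later. Daily doses were olive oil alone for the D0 group and 6.25, 12.5 and 25 mg per kg of body weight for D1, D2 and D3, with 5, 5, 4 and 5 mice for lung and 5, 5, 4 and 4 mice for forestomach. RNA came from random slices of each tissue. In forestomach at D3, 2 arrays on different slides carry the label of mouse 18 and were averaged to 1 replicate. The first lay on slide 4 with the lung array of mouse 18. The second lay on slide 5 with the lung array of mouse 20, and no forestomach array is labelled mouse 20. Every other forestomach array shared its slide with the same-numbered lung array. Glandular stomach markers (0.94 and 6.51) and Cyp2e1 (4.10 and 1.01) of the arrays labelled mouse 18 lay far apart. Whether both came from 1 animal is not settled, and the D3 group holds 4 mice by its labels. Taken as separate mice, an alternative chosen after seeing the data, they also left 0 of the genes below called in forestomach. Each array compared tissue RNA (Cy5) with a universal mouse reference RNA from cell lines (Cy3), and levels below are log2(Cy5/Cy3), so that a positive value means more signal in the tissue than in the reference.

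Cytochromes P450 insert an oxygen atom into lipophilic substrates, using electrons that Por passes on from NADPH. On a polycyclic aromatic hydrocarbon this makes an arene oxide, which microsomal epoxide hydrolase opens with water to a dihydrodiol, and a further P450 reaction on some dihydrodiols gives the DNA-reactive diol epoxides. In the mouse lung much of this machinery lies in the club cells of the airways and in type 2 alveolar cells, while the forestomach is lined by a stratified squamous epithelium.

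Markers of the labelled tissues were present. The mean log2 ratio of the markers of type 2 alveolar cells lay between 4.19 and 5.09 on the lung arrays and between -0.20 and 0.61 on the forestomach arrays, and that of squamous epithelium between 4.14 and 4.94 in forestomach and between -0.36 and -0.004 in lung. On the median array, the tissue channel was well above background for 48.8% of probes (lung) or 40% (forestomach). The forestomach samples differed in the tissue they held. The 9 markers of glandular stomach, the neighbouring part of the stomach, lay between 0.37 and 0.94 on 6 arrays (mice 2, 5, 8, 9 and 15 and the first of mouse 18) and between 4.83 and 6.90 on the other 13. Markers of fat cells ranged from 0.15 to 3.62 and those of liver cells from 0.28 to 4.11 in forestomach, against 0.55 to 1.99 and -0.07 to 0.70 in lung.

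Of the 9 genes, 8 had a promoter in the RefSeq promoter table (GRCm38.p6). The 250 bases before the start of transcription were searched on both strands for GCGTG, the core that the aryl hydrocarbon receptor binds, and for TGACNNNGC, the core of the antioxidant response element. GCGTG was found in 28.2% and TGACNNNGC in 10.2% of all 32851 windows of this length. Among the 8 genes GCGTG occurred in Cyp2b10 (2 matches) and Por (3 matches), and TGACNNNGC in 0. The promoter of Ephx1, the gene whose level changed with exposure, and those of the pair of genes with a match are shown 5′ to 3′ on the strand of the gene, with matches to GCGTG or its complement CACGC in capitals. A match is a description of the letters only.
Ephx1, chr1:181017570-181017819, minus strand: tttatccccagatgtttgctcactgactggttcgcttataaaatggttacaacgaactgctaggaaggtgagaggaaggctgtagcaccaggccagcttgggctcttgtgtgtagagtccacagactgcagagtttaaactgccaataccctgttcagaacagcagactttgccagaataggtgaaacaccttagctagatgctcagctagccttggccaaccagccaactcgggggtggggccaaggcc
Cyp2b10, chr7:25897408-25897657, plus strand: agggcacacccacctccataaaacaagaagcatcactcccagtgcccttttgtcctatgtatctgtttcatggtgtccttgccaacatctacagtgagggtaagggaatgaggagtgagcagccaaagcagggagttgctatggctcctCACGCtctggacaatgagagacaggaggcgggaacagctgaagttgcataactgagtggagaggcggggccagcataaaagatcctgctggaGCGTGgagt
Por, chr5:135688895-135689144, plus strand: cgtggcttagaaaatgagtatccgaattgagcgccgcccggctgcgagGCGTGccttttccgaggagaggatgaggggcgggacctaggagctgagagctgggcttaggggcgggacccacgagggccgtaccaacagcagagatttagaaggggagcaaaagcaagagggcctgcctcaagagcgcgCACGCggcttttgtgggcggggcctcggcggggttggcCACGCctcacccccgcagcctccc
Ephx1 had no match to either motif in this window.

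To determine which of these genes responded to DBahA in the lung, the exposed groups were set against D0. Ephx1 was higher at all 3 doses, about 2-fold at D2 and D3, and none of the other 7 genes passed the test at any dose. A probe was called when limma's Benjamini-Hochberg adjusted p over all 55681 probes was at most 0.05 and the change at least 1.5-fold. By dose, the called share of all probes was 0.14% (D1), 0.264% (D2) and 0.639% (D3), against 1 of 8 genes at each dose.

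Ephx1 (NM_010145) had log2 ratios of 1.05, 1.08, 0.98, 1.24 and 1.40 in the lungs of the 5 D0 mice. At D1 the values were 2.18, 1.96, 1.74, 1.97 and 1.78. At D2 they were 2.18, 2.29, 2.06 and 2.14, and at D3 2.34, 2.08, 2.19, 2.27 and 2.11. The lowest treated mouse, at D1, was above the highest D0 mouse, so no treated group overlapped with D0. Groups that lay wholly above D0 were found for 0.912% of probes at D1, 1.58% at D2 and 2.06% at D3. Ephx1 changed by 0.78 on the log2 scale at D1 (1.71-fold, SE 0.09, limma, adjusted p = 0.000187), 1.02 at D2 (2.03-fold, SE 0.10, adjusted p = 7.46e-06) and 1.05 at D3 (2.07-fold, SE 0.09, adjusted p = 1.27e-06). By unadjusted p, Ephx1 ranked 14th, 10th and 13th among all probes at D1, D2 and D3.

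The second probe of Ephx1 showed the same order of groups. The D0 mean was 0.19 ± 0.21 (SD, n = 5), against 0.90 ± 0.23 for D1 (n = 5), 0.99 ± 0.13 for D2 (n = 4) and 1.11 ± 0.13 for D3 (n = 5), again without overlap between D0 and any treated group. The log2 fold changes were 0.72, 0.81 and 0.93 (limma, adjusted p = 0.00424, 0.00144 and 9.5e-05), all called.

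Whether Ephx1 rose further with dose was tested directly, a comparison chosen after its values were seen. D3 was above D1 by 0.27 on the log2 scale (95% interval 0.08 to 0.46), which was not called (limma, unadjusted p = 0.00812, adjusted p = 1.00). At the second probe the difference was 0.21 (-0.02 to 0.44). D3 against D2 differed by 0.03 (-0.18 to 0.23) and 0.12 (-0.13 to 0.37) at these probes. D2 was above D1 by 0.24 (0.04 to 0.45, adjusted p = 1.00), but the second probe differed by 0.09 (-0.16 to 0.34).

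The size of the increase of Ephx1 was also taken within slides. Of the 5 slides, 4 held lung arrays of both D0 and treated mice. On each of them the treated arrays lay above the D0 arrays, which follows from the groups not overlapping and is no further evidence. Within these slides the mean of treated minus D0 arrays was between 0.72 and 1.03 on the log2 scale. With slide as a block the log2 fold changes were 0.74, 0.97 and 1.01 (limma, adjusted p = 0.000198, 1.71e-05 and 1.11e-06). Leaving out any 1 mouse kept the call at each dose, with D1 changes from 0.71 to 0.84, D2 changes from 0.98 to 1.08 and D3 changes from 1.01 to 1.11. With the level of club cell markers as a covariate the changes were 0.80, 1.05 and 1.06, all called.

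The calls depended on the normalization within arrays. When the log2 ratios were centred on each array's median in place of loess, Ephx1 differed from D0 by 1.13, 1.48 and 1.45 but was not called (limma, adjusted p = 0.817, 0.658 and 0.732). Under that setting the probes well above background on every array had a median difference of 0.37, 0.45 and 0.41, against 0.01 at each dose after loess, and 0, 5 and 16 probes of the whole array were called in lung at D1, D2 and D3.

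**Figure D1:**
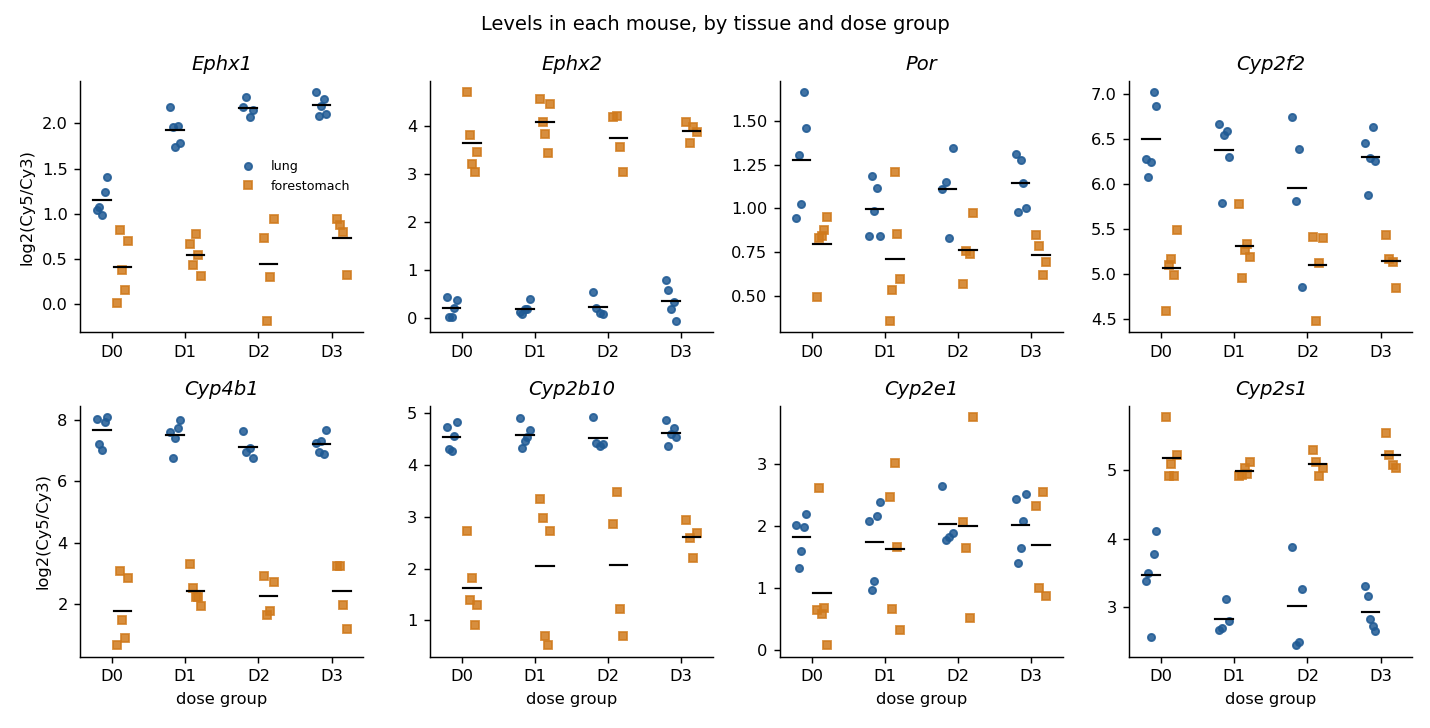
Log2(Cy5/Cy3) of the brightest probe of 8 genes (vertical axes, scaled per gene) in each mouse by dose group (horizontal axes). Circles are lung and squares forestomach, and black bars are group means. In lung, Ephx1 lay between 0.98 and 1.40 at D0 and between 1.74 and 2.34 in the treated groups, while the dose groups of the other genes overlapped.

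The other 7 genes in lung are given by role. Por, which supplies electrons to every microsomal P450, was between 0.95 and 1.66 at D0, 0.84 and 1.18 at D1, 0.83 and 1.34 at D2, and 0.98 and 1.31 at D3. Its difference from D0 was -0.28 at D1 (95% interval -0.55 to -0.02, limma, unadjusted p = 0.0345, adjusted p = 0.731) and -0.14 at D3 (-0.40 to 0.13). Under median centring it was 0.17 at D1 and 0.38 at D3, so its direction was not settled. Ephx2, which hydrolyses fatty acid epoxides in the cytosol, was at most 0.78 in any lung and was well above background in Cy5 on 12 of the 19 lung arrays. Its D3 difference was 0.15 (-0.13 to 0.42).

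Cyp2f2 and Cyp4b1, both known for high expression in the mouse airway, were well above the reference RNA in every lung. At D0 they were at 6.50 ± 0.41 and 7.66 ± 0.51 (mean ± SD, n = 5). In the exposed groups Cyp2f2 had means of 6.38 ± 0.36 (D1, n = 5), 5.95 ± 0.82 (D2, n = 4) and 6.30 ± 0.28 (D3, n = 5). The D2 difference of -0.54 (95% interval -1.13 to 0.05) rested on mouse 15, at 4.86 against 5.81 to 6.74 in the other 3 mice, and was -0.18 without it. The same mouse had the lowest mean level of type 2 alveolar cell markers of all lung arrays, at 4.19. Its club cell marker level, at 4.59, was above those of D2 mice 12 (4.42) and 13 (4.46). The part of the type 2 alveolar cell markers in the difference was not tested.

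Cyp4b1, which activates several lung toxicants, was lower than the D0 mean in all 4 mice of D2, at 7.65, 6.95, 7.09 and 6.76 against 7.02 to 8.10 at D0. The log2 difference was -0.55 (95% interval -1.07 to -0.03, limma, unadjusted p = 0.0390, adjusted p = 0.585) at D2 and -0.44 (-0.94 to 0.05) at D3, neither of them called. Under median centring these differences were -0.08 and -0.002.

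Cyp2s1, an epithelial P450, was 3.46 ± 0.58 at D0 (mean ± SD, n = 5). At D1 it was 2.82 ± 0.20 (n = 4, as the spot of mouse 6 was marked as an outlier and left out), at D2 3.02 ± 0.69 (n = 4) and at D3 2.93 ± 0.29 (n = 5). All 4 mice of D1 and all 5 of D3 were below the D0 mean, but D0 mouse 3, at 2.56, was below every one of them. The log2 difference was -0.64 at D1 (95% interval -1.22 to -0.06, limma, unadjusted p = 0.0317, adjusted p = 0.725) and -0.53 at D3 (-1.08 to 0.02, adjusted p = 0.465), and neither was called. The D3 difference was -0.01 under median centring. It was -0.48 (adjusted p = 0.0481) with club cell markers as a covariate, which is under the fold threshold. The mean level of these markers was 3.98 to 5.67 at D0 and 4.67 to 5.44 at D3.

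Cyp2b10, the P450 that serves as the standard target of the constitutive androstane receptor, lay between 4.28 and 4.83 at D0 and between 4.32 and 4.92 in the treated groups. Its difference from D0 was 0.04, -0.01 and 0.07 at D1, D2 and D3, and the 95% interval at D3 (-0.21 to 0.35) left out a 1.5-fold change in either direction. Cyp2e1, the ethanol-inducible P450, was 1.83 ± 0.35 at D0 (n = 5) and 2.02 ± 0.49 at D3 (n = 5), a difference of 0.19 (-0.37 to 0.76). Its second, dimmer probe differed by 0.24 (-0.05 to 0.53).

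**Figure D2:**
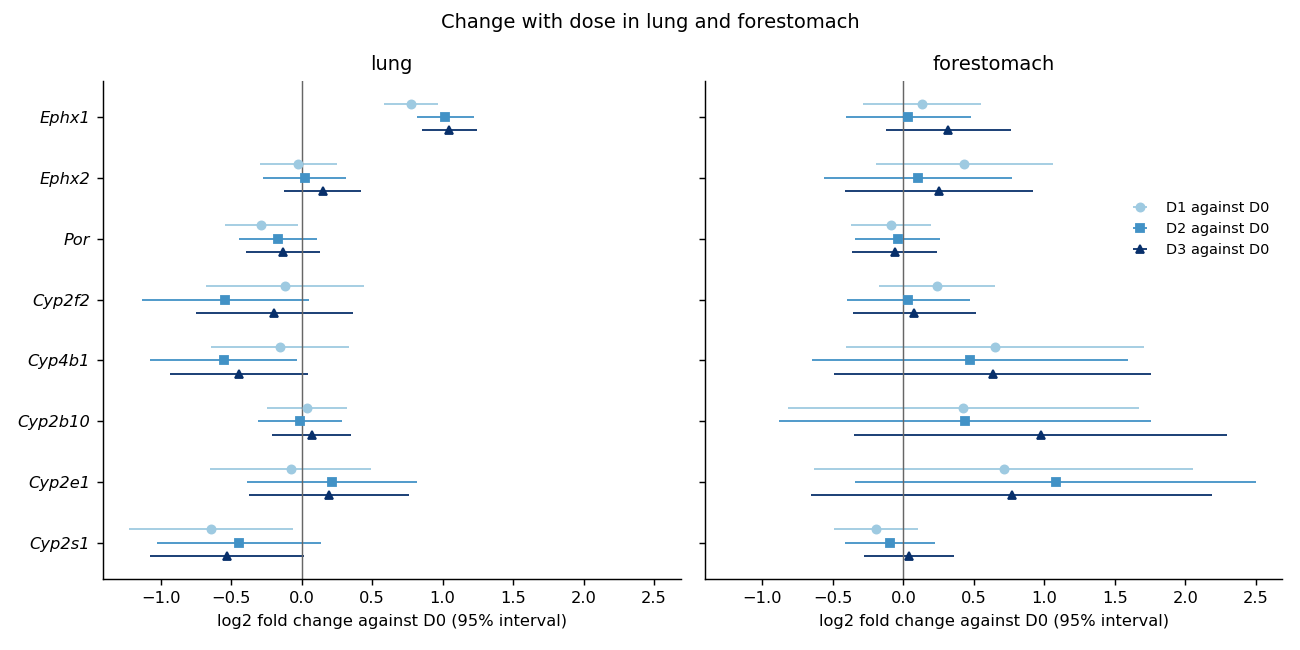
Log2 fold change against D0 (horizontal axis) with its 95% interval for 8 genes (rows) at D1, D2 and D3, in lung (left) and forestomach (right). Ephx1 in lung, at 0.78, 1.02 and 1.05, is the gene whose intervals lie farthest from 0, and the intervals in forestomach are wider for Cyp2b10, Cyp2e1 and Cyp4b1 than in lung.

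The same comparisons were made in the forestomach, the tissue of first contact. None of the 8 genes was called at D1, D2 or D3. limma called 0% of all probes at each dose. An unadjusted p under 0.05 was reached by 2402, 1737 and 1987 probes, of which 0 belonged to these genes, so the count of 0 is not particular to them.

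Ephx1 was 0.02, 0.82, 0.38, 0.16 and 0.70 in the forestomach of the 5 D0 mice. At D1 it was 0.67, 0.44, 0.77, 0.54 and 0.32, at D2 0.74, -0.18, 0.30 and 0.95, and at D3 0.94, 0.88, 0.80 and 0.32. The D3 value of 0.80 is the mean of the 2 arrays labelled mouse 18, at 1.11 and 0.49. Every treated group overlapped with D0. The differences were 0.13 (95% interval -0.29 to 0.55), 0.04 (-0.41 to 0.48) and 0.32 (-0.13 to 0.77) at D1, D2 and D3, and the second probe was at 0.14, 0.09 and 0.14 (limma, adjusted p = 1.00 for each). These intervals include 0 and, at D3, also a 1.5-fold increase.

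Ephx1 is given here beside the content of glandular stomach. The gene lay between 0.54 and 1.11 on the 6 arrays with low glandular markers, and between -0.18 and 0.94 on the other 13, so the ranges overlapped. Both kinds of array occurred in each dose group. With the glandular marker level as a covariate the D3 difference was 0.42, and with the liver marker level 0.49, neither called (limma, adjusted p = 0.990 and 0.998). Here, as in any bulk sample, fewer cells of a type and less RNA per cell cannot be told apart.

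Cyp2b10 also differed between these arrays. It was between 0.52 and 1.5 on the 6 arrays with low glandular markers and between 0.91 and 3.48 on the other 13. At D3, where the mice were at 2.93, 2.59, 2.21 and 2.68 against 0.91 to 2.72 at D0, the difference was 0.97 (95% interval -0.35 to 2.30, limma, adjusted p = 1.00). It was 0.66 with glandular markers and 0.14 with liver markers as a covariate. The part of these tissues in the difference was not tested beyond these fits.

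Cyp2e1, which is abundant in liver and also made by fat cells, had values from 0.07 to 3.77 over the forestomachs. At D0 mouse 2 was at 2.62 and the other 4 mice between 0.07 and 0.68, and mouse 2 also had the highest level of fat cell markers of all arrays, at 3.62. D2 mouse 15 (3.77) and D1 mouse 8 (3.02) had fat cell marker levels of 3.60 and 2.94. D1 mouse 6 (2.47) and D2 mouse 12 (1.65) had levels of 2.24 and 2.41. In contrast, D3 mouse 16 (2.33), D2 mouse 11 (2.07) and D1 mouse 9 (1.67) had low levels of 0.50, 0.53 and 0.20. Liver cell marker levels were 3.09, 3.35 and 2.01 in these mice, against 0.755, 0.40 and 0.28 in mice 2, 8 and 15. They were also 2.83 in D0 mouse 1 and 2.63 in D3 mouse 19, where Cyp2e1 was low, at 0.645 and 0.88. The part of either tissue in these values was not tested beyond covariate fits, of which that with fat cell markers is given below. The 2 arrays of D3 mouse 18 were at 4.10 and 1.01, and their levels of liver cell markers were 4.11 and 3.01. The differences from D0 were 1.08 at D2 (95% interval -0.34 to 2.50) and 0.77 at D3 (-0.65 to 2.19), not called. With slide as a block they were 0.47 and 0.16, and with fat cell markers as a covariate 0.58 and 1.16. Between the arrays of mouse 18 the D3 difference changed from 1.16 with the first alone to 0.38 with the second alone.

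Cyp4b1 was between 0.65 and 3.31 in forestomach and differed from D0 by 0.63 at D3 (95% interval -0.49 to 1.75). Its reference signal was well above background on few forestomach arrays (on 1 of 5 at D0 and in 0 of 4 mice at D3), which makes its ratio less certain there. Cyp2f2 (0.08, -0.36 to 0.51), Cyp2s1 (0.04, -0.28 to 0.36), Por (-0.06, -0.36 to 0.24) and Ephx2 (0.25, -0.42 to 0.92) had D3 differences whose intervals include 0. The sign of each of these 4 values changed in some setting.

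**Figure D3:**
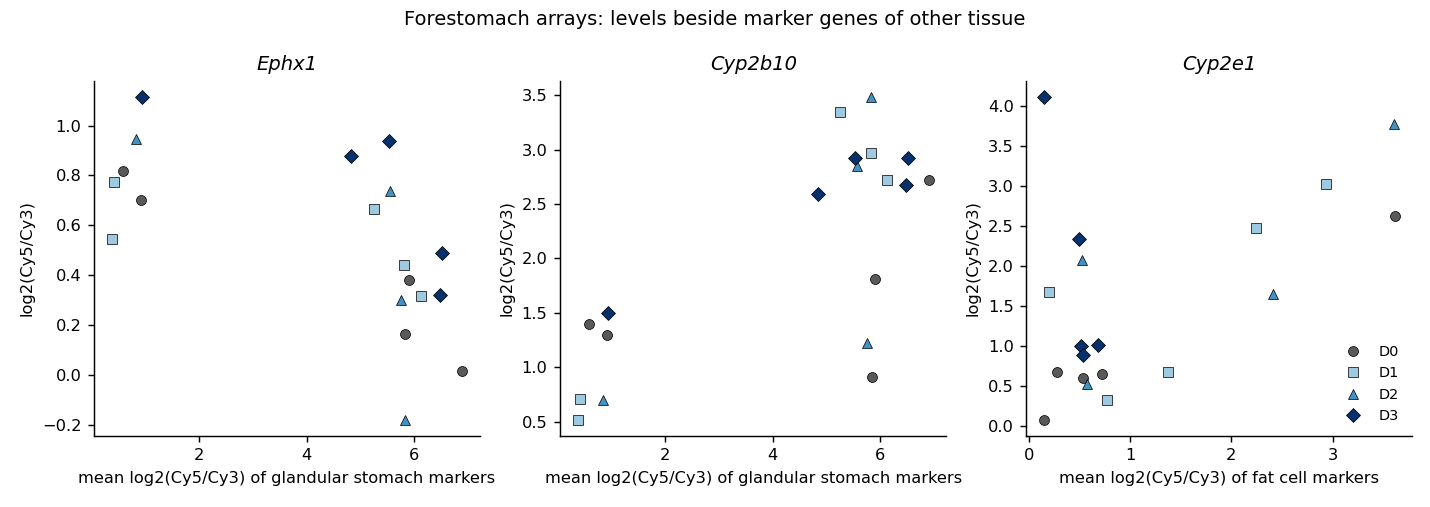
Log2(Cy5/Cy3) of Ephx1, Cyp2b10 and Cyp2e1 on the 19 forestomach arrays (vertical axes) against the mean log2 ratio of markers of glandular stomach or fat cells (horizontal axes), with symbols by dose group. For glandular stomach the arrays fall into 6 at 0.37 to 0.94 and 13 at 4.83 to 6.90, and Cyp2b10 did not exceed 1.5 on the 6.

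Whether the D3 response differed between the tissues was tested in 1 fit over all arrays. limma called 0 of the 8 genes for the difference, against a called share of 0.172% of all probes. An unadjusted p under 0.05 was reached by 1 of the 8 genes, against 5% of all probes. For Ephx1 the lung response exceeded that of forestomach by 0.73 on the log2 scale (95% interval 0.27 to 1.19, limma, unadjusted p = 0.00309), which did not pass the adjustment over all probes (adjusted p = 0.397). The second probe gave 0.79 (0.32 to 1.26, adjusted p = 0.305). Both intervals lie above 0, but the call of Ephx1 in lung and its absence in forestomach are not thereby shown to differ. The other 7 genes had differences between -1.08 (Cyp4b1, -2.27 to 0.12) and -0.07 (Por, -0.47 to 0.32).

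The larger contrast was between the untreated tissues. Of the 8 genes, 6 were called between lung and forestomach at D0, 4 higher in lung and 2 lower, against 16.2% of all probes, 8.62% higher and 7.6% lower. In each of the 6 the D0 groups of the tissues did not overlap, which held for 18.8% of all probes. The untreated forestomachs of mice 1, 3 and 4 had high glandular stomach markers, and those of mice 2 and 5 low ones. The part of that tissue in the differences below was not tested.

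Cyp4b1 was far higher in lung. Its log2 ratio was 8.04, 7.22, 7.02, 7.95 and 8.10 in the 5 untreated lungs and 0.65, 3.09, 1.46, 0.90 and 2.84 in the forestomachs of the same mice. The log2 difference was 5.88 (58.7-fold, SE 0.40, limma, adjusted p = 7.96e-14), but its size is uncertain, as the reference signal was well above background on 1 of the 5 forestomach arrays. The difference was 4.54 under median centring and 3.53 with the Feature Extraction log ratio. The forestomach values also split by glandular content, with 3.09 and 2.84 in mice 2 and 5 (low markers) and 0.65, 1.46 and 0.90 in mice 1, 3 and 4 (high markers).

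Cyp2b10 was 4.74, 4.30, 4.28, 4.56 and 4.83 in lung and 2.72, 1.40, 1.81, 0.91 and 1.30 in forestomach, a difference of 2.91 (7.52-fold, SE 0.44, limma, adjusted p = 2.06e-06). The difference of Cyp2b10 was 1.59 under median centring and 1.41 with the Feature Extraction log ratio. Cyp2f2 was 6.28, 6.08, 6.24, 7.01 and 6.86 in lung and 4.60, 5.11, 5.17, 4.99 and 5.49 in forestomach, 1.42 higher in lung (2.68-fold, SE 0.25, adjusted p = 2.89e-05). Cyp2f2, often used as a lung P450, was thus well above the reference in the forestomach of every untreated mouse. Ephx1 was 0.73 higher in lung (1.66-fold, SE 0.16, adjusted p = 0.000372). Its second probe, at 0.30, was not called (adjusted p = 0.182), and the mean of both probes, 0.51, was under the fold threshold. By its brightest probe Ephx1 was 0.02, 0.38 and 0.16 in the forestomachs of mice 1, 3 and 4, with high glandular markers. It was 0.82 and 0.70 in those of mice 2 and 5, with low ones, so the size of its tissue difference depended on the forestomachs compared.

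In the other direction, Ephx2 was 0.43, 0.03, 0.03, 0.21 and 0.37 in lung and 4.70, 3.80, 3.20, 3.03 and 3.46 in forestomach. It was 3.43 lower in lung (10.8-fold, SE 0.24, limma, adjusted p = 7.97e-14), and only 3 of the 5 lungs were well above background in Cy5. The difference of Ephx2 was -2.06 under median centring and -4.98 with the Feature Extraction log ratio. Cyp2s1 was 3.38, 3.50, 2.56, 3.77 and 4.11 in lung and 5.78, 4.92, 5.08, 4.92 and 5.22 in forestomach. It was 1.72 lower in lung (3.3-fold, SE 0.23, adjusted p = 2.58e-07). By their brightest probes the epoxide hydrolases ran in opposite directions between the tissues, microsomal Ephx1 higher in lung and soluble Ephx2 higher in forestomach.

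Cyp2e1 and Por were not called. Por was 0.48 higher in lung (SE 0.13, limma, adjusted p = 0.00574), under the fold threshold. Cyp2e1 was 0.91 higher (95% interval -0.12 to 1.93, adjusted p = 0.199), with forestomach mouse 2, the sample with the most fat cell marker signal, above all 5 lungs. Without that sample Cyp2e1 was 1.33 higher and was called (adjusted p = 0.0430).

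The tissue calls of Cyp4b1, Cyp2b10 and Ephx2 held under every setting run, while their sizes moved as given above. Under median centring Cyp2f2 (1.33), Cyp2s1 (-1.02) and Ephx1 (1.11) kept their direction and were not called (limma, adjusted p = 0.0788, 0.228 and 0.208). Mouse as a replicate block, which sets each lung against the forestomach with the same mouse number, gave the same 6 genes.

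**Figure D4:**
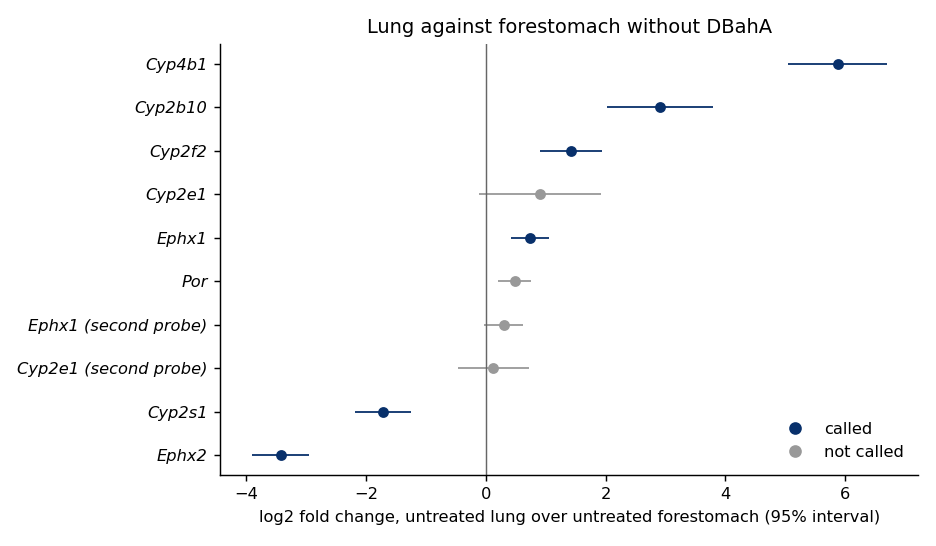
Log2 fold change of untreated lung over untreated forestomach (horizontal axis) with its 95% interval for all 10 probes (rows), dark where called. Cyp4b1 (5.88), Cyp2b10 (2.91), Cyp2f2 (1.42) and the brightest probe of Ephx1 (0.73) lie above 0 and Cyp2s1 (-1.72) and Ephx2 (-3.43) below.

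Other genes of the same pathways were examined from 8 lists, which held 117 further genes of the CYP2, CYP3 and CYP4 families, P450 enzymes of endogenous substrates, electron donors, other epoxide hydrolases, flavin monooxygenases and molybdenum oxidases, and nuclear receptors. Of these, 112 had a probe. limma called 0 of the 112 at any dose in either tissue. At an unadjusted p under 0.05 there were 4, 5 and 9 of them in lung at D1, D2 and D3 (3.57, 4.46 and 8.04%), against 6.53, 8.06 and 11.3% of all probes, and 2, 3 and 8 in forestomach (1.79, 2.68 and 7.14%), against 4.31, 3.12 and 3.57% of all probes. With called shares of all probes as low as those given above, a count of 0 is not particular to these lists. In lung at D3 the medians of the lists lay between -0.09 and 0.05, against -0.001 for all probes. In forestomach at D3, 83 of the 112 genes were higher, with a median of 0.11, against 0.001 for all probes. Of the 40 CYP2 genes 33 were higher there, with a median of 0.25. The mean level of liver cell markers was also higher on these arrays, at 2.25 to 4.11 against 0.47 to 2.83 at D0. All 6 liver cell markers were higher at D3, with a median of 1.34, and so were all 9 glandular stomach markers, with a median of 1.17. The mean level of the latter was 0.94 to 6.51 at D3 and 0.59 to 6.90 at D0. Of the 6 fat cell markers 0 were higher, with a median of -0.44. The part of liver, glandular stomach or fat tissue in this shift was not tested.

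Between untreated tissues, 34 of the 112 genes (30.4%) were called, 17 higher and 17 lower in lung, against 16.2% of all probes, 8.62% higher and 7.6% lower. The genes are counted by their brightest probe and the shares over all probes, with or without a gene symbol, so the bases differ. The flavin monooxygenases, a second family of NADPH-dependent oxygenases, were listed with the molybdenum oxidases. Of the 9 genes of this list 6 were higher in lung, among them Fmo1 by 4.40 on the log2 scale, and 1, the aldehyde oxidase Aox4, was at least 10-fold lower, as it was not well above background in any untreated lung. Among electron donors, Cyb5r3, Cyb5a and Fdx1 were 1.32, 0.94 and 0.88 higher in lung. Of the 40 measured CYP2 genes 2 were higher, Cyp2a4 by 3.57 and Cyp2b9, which was not well above background in any untreated forestomach, at least 3.17-fold, and 6 were lower, with Cyp2c66 (-3.22) and Cyp2c65 (at least 10.2-fold) furthest. Cyp2a4 is nearly identical to Cyp2a5, so its probe may report both.

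Of the 18 CYP4 genes 4 were higher, with Cyp4v3 by 1.80, and Cyp4f15 at least 3.13-fold, and 2 were lower, with Cyp4f39 by 1.78 the larger. Cyp3a13 was the 1 CYP3 gene called, with -2.80. All 4 nuclear receptor genes called were lower in lung, Hnf4a at least 9.88-fold and Ppara by 1.96. Of the other epoxide hydrolases and relatives, Mest was 2.16 higher, and Ephx3 (-1.15) and Ephx4 (-0.76) were lower in lung. Several of these, such as Hnf4a and Cyp2c65, were well above background in 4 of the 5 untreated forestomachs, which also differed in glandular stomach content, and the part of that tissue in these differences was not tested.

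The genes whose log2 ratios followed those of each member most closely over the lung mice were listed as a description. For Ephx1 (19 mice) they were Gdf15 (Pearson r = 0.973), Thyn1 (0.967) and Aen (0.964), the best of 11623 candidate genes. Much of this likeness was the difference between dose groups, as after subtraction of the group means r was 0.627, 0.725 and 0.651. Each of the 3 genes was called in lung at every dose, at D3 with log2 fold changes of 3.63, 1.43 and 1.59, and none in forestomach. For Cyp2f2 the closest genes were Cbr2 (r = 0.956), Sftpb (0.939) and Sftpc (0.926), which mark club and type 2 alveolar cells, and these values were 0.953, 0.944 and 0.916 after subtraction of the group means. Cyp2b10 was closest to Scnn1a (0.918), a sodium channel subunit of the airway epithelium, Cyp2s1 to Mgst2 (0.939, over 18 mice), Cyp4b1 to Sox13 (0.903), Cyp2e1 to Higd1b (0.886) and Por to Rnf128 (0.794). The arrays of a mouse share slide, depth and tissue slice, and no p is given. Forestomach arrays fell into separate clusters by glandular content, so no such correlation is given for them.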

How the data were processed

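RNA from lung and forestomach was hybridised by the authors to 38 Agilent 2-colour arrays, with tissue RNA in Cy5, reference RNA in Cy3 and no dye swap. The deposited scanner files, made with Feature Extraction 10.7.3.1 per the file headers, hold median signal intensity per spot and a log10 ratio, and the authors' value table holds log2 ratios. The scale, centring and direction of that table were checked against the scanner values (slope 0.99 to 0.998 and r 0.995 to 0.999 per array, medians from -0.0415 to -0.0195). A constant dye effect stays in every level but cancels in comparisons between groups.

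As in the study's methods, median intensities without background correction were normalized within arrays by loess (limma 3.58.1, R 4.3.3). Control spots and 384 outlier values were left out, spots of 1 probe were averaged, and 0 spots were saturated. Well above background was taken from the scanner files (30.1 to 63.8% of probes in Cy5). limma, in place of the study's MAANOVA, was fitted per tissue over all dose groups and jointly for comparisons between tissues. A probe was called at a Benjamini-Hochberg adjusted p of at most 0.05 over all 55681 probes and at least 1.5-fold. Intervals are 95%, without adjustment, and the number of mice limits the precision. Groups came from the sample labels, and each mouse is 1 replicate.

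For 2 probes of a gene the brighter in Cy5 was used and the other is given beside it. A bound ("at least") set the mean of the bright group against the lowest signal well above background, per channel. The genes named were all members, up to 4 called genes of each list with the largest change, and the 3 genes closest to each member by Pearson correlation. The members and lists were chosen with earlier results of these data known. Same-numbered lung and forestomach samples were taken to come from the same animal by their labels, which is not settled for mouse 18. Their deviations from the group means correlated at a median r of 0.186 over 18 pairs (0.0751 to 0.249).

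Alternatives were background correction (normexp, offset 50), median centring, the Feature Extraction log ratio, the authors' value table, filters on dim probes, probe rules, slide and mouse as blocks, marker levels as covariates, fits of fewer groups, either array of mouse 18, and leaving out each mouse. The liver marker covariate, the slide block for untreated tissues and the arrays of mouse 18 as separate mice were chosen after seeing the data. The fit was tested on simulated data.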

Additional observations from a re-analysis of the deposited data

Results flagged for a closer look

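Of 64 groups of 4 or 5 mice (8 genes, 4 dose groups and both tissues), 4 held a mouse set apart from the others by Dixon's test, and chance flags about 1 in 20 groups. In lung at D2, mouse 11 was highest for Cyp2b10, at 4.92 against 4.36 to 4.42, and for Cyp2e1, at 2.65 against 1.79 to 1.90. Its lung array also had the highest mean levels of club cell (5.72), fat cell (1.99) and heart muscle (3.13) markers of all lung arrays. The part of these tissues in its values was not tested. In untreated forestomach, mouse 2 was at 2.62 for Cyp2e1 against 0.07 to 0.68 in the other mice. Mouse 1 was at 0.49 for Por, against 0.83 to 0.95.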

How the results depend on the processing

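Median centring in place of loess left 0 genes called in lung at D1, D2 and D3 (1 with loess) and 3 between untreated tissues (6 with loess), and the cause was not tested. With mouse as a replicate block, 6 genes were called between untreated tissues and 0 for the difference of the D3 response, so the pairing changed no count. Leaving out each mouse gave 1 gene in lung at each dose, 0 in forestomach and for the difference, and 6 to 7 between untreated tissues. The values that changed sign were all of uncalled changes. Under median centring they were Cyp2f2 in lung at D2 (0.032) and D3 (0.36) and Por in lung at D1 (0.17) and D3 (0.38) and in forestomach at D3 (0.76). With the Feature Extraction log ratio they were, at D3, Cyp2b10 (-0.039) and Cyp2e1 (-0.034) in lung, Cyp2f2 (-0.025), Cyp2s1 (-0.069), Por (0.016) and Ephx2 (-0.30) in forestomach, and the tissue difference of Ephx2 (1.09). With slide as a block they were Ephx1 at D2 (-0.086) and Cyp2f2 at D3 (-0.053) in forestomach. With the first array of mouse 18 alone Cyp2s1 was at -0.016, with the mouse block the difference of Ephx2 at 0.001, with glandular markers Por at 0.002, and with fat markers Ephx1 at D2 at -0.037. With liver markers, in forestomach at D3, Cyp2s1 was at -0.041, Por at 0.17 and Ephx2 at -0.13. Leaving out 1 mouse spanned 0 for Cyp2f2 (-0.042 to 0.18) and Cyp2s1 (-0.07 to 0.19) in forestomach at D3, Ephx1 there at D2 (-0.13 to 0.25), and the tissue differences of Ephx2 (-0.37 to 0.049) and Por (-0.16 to 0.023). Low signal limits Ephx2 in lung and the reference signal of Cyp4b1 in forestomach.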
